A study of Homo sapiens with 6 samples.

Results

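Integrins are the receptors by which cells hold on to the extracellular matrix, and 36 genes were followed here: 12 integrin alpha chains, 6 integrin beta chains and 18 cytoplasmic proteins that couple integrins to actin and to signalling. They were taken by gene symbol from a table of 63086 genes, and all 36 passed the filter on low counts that left 16046 genes for testing. The cells were A375, an established human melanoma line grown in serum-containing medium. DUS1L knockout cells (3 libraries) had been edited with CRISPR/Cas9 at DUS1L, the gene of a tRNA dihydrouridine synthase, and then selected as clones. Wild-type cells (3 libraries) had been carried alongside without targeting. How many clones stand behind the knockout libraries was not given in the sources used here, so knockout and clonal origin cannot be told apart.

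An integrin is a pair of 1 alpha and 1 beta chain that crosses the membrane. The alpha chain largely sets which matrix protein is bound, and the beta chain tail is bound inside the cell by talin and kindlin, which switch the receptor on. Around the tails a focal adhesion forms, in which vinculin, alpha-actinin, tensin and zyxin tie the receptor to actin, while focal adhesion kinase, paxillin, p130Cas and CRK pass signals on. Melanoma cells use alpha 3, alpha 6, alpha V and beta 3 chains, among others, for attachment and invasion.

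Most of the 18 integrin chains among the members were lower in DUS1L knockout cells, while their cytoplasmic partners were found in both directions. At an adjusted p under 0.05 (edgeR quasi-likelihood test, Benjamini-Hochberg adjustment over all genes tested), 8 of 12 alpha chains and 4 of 6 beta chains fell and none rose. Among all genes tested, 20.7% fell and 20.5% rose, 41.2% in either direction. ITGAM, an integrin chain outside the members, was called higher and is described further below. Of the 18 cytoplasmic members, 5 rose, 2 fell and 11 were not called. The median log2 fold change (knockout over wild-type) was -0.45 for alpha chains, -0.38 for beta chains and -0.04 for cytoplasmic members, against 0.00 over all genes tested. The fold change was below 0 for 16 of the 18 chains and 10 of the 18 cytoplasmic members, and for 50.6% of all genes tested. Most changes were of moderate size. Against a bar of 1.5-fold (edgeR glmTreat), ITGA6 and ITGA9 passed, as did 1.27% of all genes tested in the lower direction, and no member passed in the higher direction, where 2.31% of all genes did (3.58% in either direction).

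**Figure D1:**
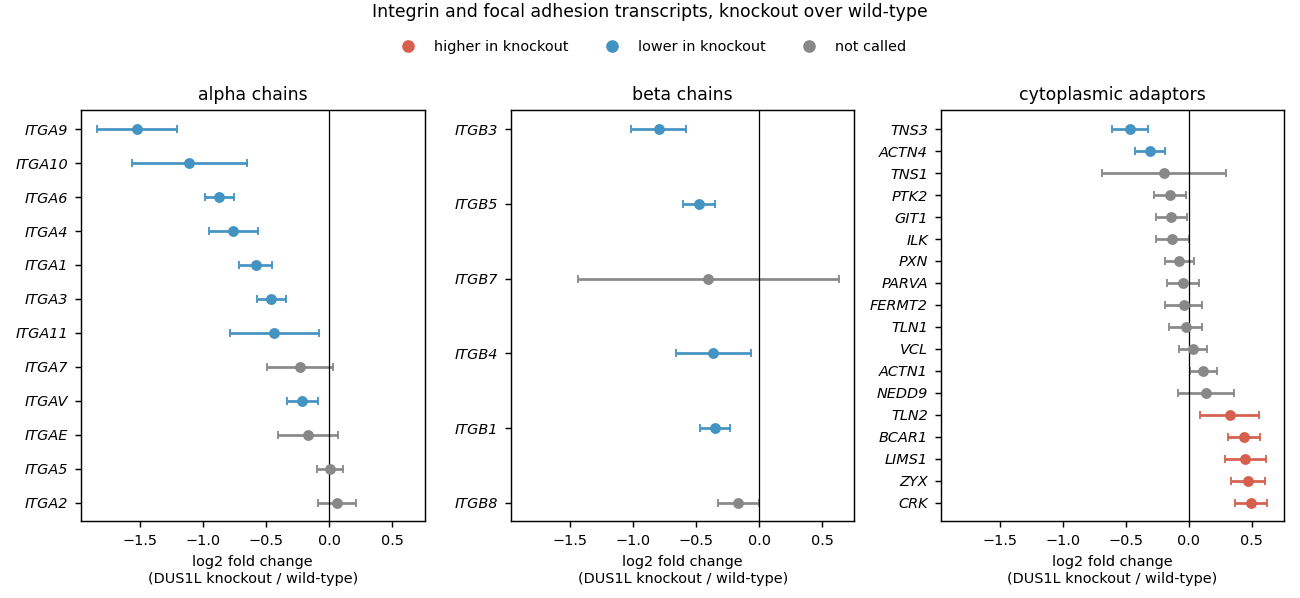
Log2 fold change of each member (knockout over wild-type) with its 95% interval, in a panel per class, coloured by the call at an adjusted p under 0.05. Called integrin chains all lie to the left of 0, down to -1.53 for ITGA9, whereas called cytoplasmic members lie on both sides, from -0.47 for TNS3 to 0.49 for CRK.

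The libraries held 17121315 to 18861514 estimated counts, and a count of 3 corresponds to 0.16 to 0.18 CPM (counts scaled per 1e+06, on the TMM-scaled library size). Members had between 6 and 19526 counts in a library. Genotypes parted along the first principal component (50.7% of variance). Wild-type replicate 1 stood apart on the second, at 35.2, with replicates 2 and 3 at -19.2 and -16.4. Mitochondrial genes took 3.79%, 4.10% and 3.84% of counts in knockout libraries and 4.77%, 4.55% and 4.41% in wild-type libraries, without overlap, and the part of this difference in the results was not tested. The DUS1L transcript was at 54.4 ± 1.1 CPM in knockout and 77.6 ± 2.2 CPM in wild-type libraries (SD, n = 3 each, log2 fold change -0.51, adjusted p = 1.7e-06), a measure that does not show whether the remaining transcripts encode the protein. Melanoma lineage markers summed to 568 to 636 CPM in knockout and 753 to 782 CPM in wild-type libraries, mostly from SOX10. Of 6 tested, 3 were called lower (SOX10, ERBB3 and S100B), against 20.7% of all genes. MITF, PAX3 and S100A1 were not called, with log2 fold changes of 0.07, 0.23 and -0.31. The pigmentation gene TYR was at 0, and PMEL, MLANA and DCT were at 0.49 CPM or less in every library. Of the leukocyte markers, CD3E was at 0, PTPRC reached at most 0.37 CPM, and the sum was 42.5 to 48.4 CPM in knockout and 35.7 to 39.6 CPM in wild-type libraries. The largest part of that sum was CD68, at 23.3 ± 4.6 CPM in knockout and 21.4 ± 0.2 CPM in wild-type libraries. Of 8 fibroblast markers none was at 0 in all libraries. Their sum was 63.0 to 184 CPM in knockout and 41.9 to 85.6 CPM in wild-type libraries. COL1A1 was at 101 CPM in knockout replicate 2. COL1A1 and COL1A2 overlapped between genotypes and were not called (adjusted p = 0.311 and 0.276). PDGFRB, the only fibroblast marker called, fell (log2 fold change -0.89, adjusted p = 8.11e-05). Of 8 keratinocyte markers KRT1 and KRT5 were at 0 and the sum was 50.3 to 59.6 CPM in knockout and 53.6 to 59.5 CPM in wild-type libraries. Nearly all of it was KRT10, at 52.7 ± 5.4 CPM in knockout and 54.1 ± 2.8 CPM in wild-type libraries. The 6 endothelial markers summed to 4.2 CPM or less in each library. The part of these markers in the results was not tested. In bulk RNA, fewer cells of a kind and less RNA per cell cannot be told apart.

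The alpha chains are taken here by ligand, a grouping made after the fit was run. Among the alpha chains of laminin receptors, 2 of 3 fell, against 20.7% of all genes tested. ITGA6, which pairs with beta 1 or beta 4 to bind laminin, was at 192, 211 and 211 CPM in knockout libraries and at 397, 365 and 361 CPM in wild-type libraries. The gene lies at chr2:172427354-172506459 on the plus strand (GRCh38). Its groups lay far apart, with a log2 fold change of -0.87 (SE 0.06, adjusted p = 2.45e-10, 1.83-fold lower). ITGA3, the other main laminin-binding chain of adherent cells, was at 327, 302 and 323 CPM in knockout libraries against 408, 435 and 467 CPM in wild-type libraries. It fell by 0.46 in log2 terms (SE 0.06, adjusted p = 1.41e-06), and every knockout value lay below every wild-type value. ITGA7, a laminin-binding chain best known from muscle, had 9.14, 9.25 and 9.08 CPM in knockout libraries and 11.1, 10.6 and 10.5 CPM in wild-type libraries. Its groups did not overlap, but it was not called (adjusted p = 0.157, log2 fold change -0.23, 95% interval -0.49 to 0.03). Exons of ITGA7 overlap those of METTL7B and BLOC1S1 on the opposite strand, which had log2 fold changes of -0.76 and -0.48 (adjusted p = 0.000112 and 0.000319), and reads of the 3 genes cannot be assigned to a strand here.

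Of the 4 alpha chains that bind collagen with beta 1, 3 fell, against 20.7% of all genes tested. ITGA1 was at 83.1, 73.9 and 85.3 CPM in knockout libraries and 119.5, 125.4 and 118.2 CPM in wild-type libraries, a log2 fold change of -0.58 (SE 0.06, adjusted p = 3.19e-07). Its exons share 499 bases with PELO on the same strand, a gene of ribosome rescue, which was at 99.7 ± 2.2 CPM in knockout and 93.8 ± 3.7 CPM in wild-type libraries and was not called (adjusted p = 0.237, log2 fold change 0.09). ITGA2, the next integrin gene on the same strand of chromosome 5, had 41.97, 45.1 and 43.8 CPM in knockout libraries against 43.8, 40.5 and 40.8 CPM in wild-type libraries. These values overlapped and no change was called (log2 fold change 0.06, 95% interval -0.09 to 0.22, adjusted p = 0.508). The ratio of ITGA1 to ITGA2 counts within a library, which no scaling of the library alters, was 1.98, 1.64 and 1.95 in knockout and 2.73, 3.10 and 2.90 in wild-type libraries. The collagen receptor chains of cartilage and stroma, ITGA10 and ITGA11, were low in these cells. ITGA10 was at 3.13, 3.41 and 2.20 CPM in knockout libraries and 5.47, 7.80 and 5.58 CPM in wild-type libraries (log2 fold change -1.11, SE 0.22, adjusted p = 0.000372). ITGA11 was at 5.63, 4.45 and 5.53 CPM in knockout libraries and 7.41, 6.78 and 6.98 CPM in wild-type libraries. That call was near the threshold (log2 fold change -0.44, adjusted p = 0.044), and leaving out any 1 of the 6 libraries lost it, with adjusted p from 0.0547 to 0.149.

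ITGA4 and ITGA9, related chains that pair with beta 1 and bind VCAM1, fibronectin or tenascin-C, both fell, against 20.7% of all genes tested. ITGA4 was at 19.98, 20.1 and 23.5 CPM in knockout libraries against 37.6, 37.3 and 32.7 CPM in wild-type libraries (log2 fold change -0.76, SE 0.09, adjusted p = 1.67e-06). ITGA9 had the lowest fold change of all 36 members, at 4.99, 4.57 and 4.51 CPM in knockout libraries and 15.2, 14.3 and 11.2 CPM in wild-type libraries. Its log2 fold change was -1.53 (SE 0.15, adjusted p = 1.18e-07), a 2.88-fold lower level. Both groups of libraries were clear of each other for each of these genes.

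The alpha chains that recognise the RGD sequence of fibronectin and vitronectin were closer between genotypes. ITGAV, the shared partner of beta 1, beta 3, beta 5, beta 6 and beta 8, was at 90.7, 97.9 and 96.1 CPM in knockout libraries and 108, 108 and 114 CPM in wild-type libraries. It fell by 0.21 on the log2 scale (SE 0.06, adjusted p = 0.00572), with no overlap. ITGA5, the fibronectin receptor chain, was at 451, 453 and 484 CPM in knockout libraries against 478, 449 and 455 CPM in wild-type libraries. The groups overlapped throughout, and the interval of its log2 fold change ran from -0.10 to 0.11 (adjusted p = 0.935). ITGAE, which binds E-cadherin with beta 7 on lymphocytes, was at 13.0, 12.5 and 15 CPM in knockout libraries and 15.3, 15.4 and 14.7 CPM in wild-type libraries without a call (adjusted p = 0.254, log2 fold change -0.17, 95% interval -0.41 to 0.07). Its exons overlap those of the kinase gene HASPIN on the opposite strand.

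The 250 bases before the RefSeq start sites of 4 alpha chain genes are shown because these genes split by outcome: ITGA6 and ITGA1 fell, while ITGA2 and ITGA5 were not called. They lie at chr2:172427086-172427335 (ITGA6), chr5:52787666-52787915 (ITGA1) and chr5:52989102-52989351 (ITGA2) on the plus strand and at chr12:54419267-54419516 (ITGA5) on the minus strand of GRCh38.p14, and are written 5′ to 3′ as RefSeq gives them. Capitals mark matches on either strand to 4 motifs: the GC box bound by SP1 (GGGCGG), the TEAD motif (GGAATG), the AP-1 motif (TGANTCA) and the SRF CArG box.
ITGA6: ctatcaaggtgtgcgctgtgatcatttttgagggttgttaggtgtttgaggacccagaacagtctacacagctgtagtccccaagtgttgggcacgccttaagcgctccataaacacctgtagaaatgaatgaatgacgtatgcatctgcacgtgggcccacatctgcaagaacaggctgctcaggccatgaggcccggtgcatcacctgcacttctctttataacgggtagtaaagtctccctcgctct
ITGA1: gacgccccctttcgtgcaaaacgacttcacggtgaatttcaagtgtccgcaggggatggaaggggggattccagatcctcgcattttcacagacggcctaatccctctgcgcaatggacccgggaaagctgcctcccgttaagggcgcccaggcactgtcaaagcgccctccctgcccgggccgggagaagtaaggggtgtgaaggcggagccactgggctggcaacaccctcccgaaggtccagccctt
ITGA2: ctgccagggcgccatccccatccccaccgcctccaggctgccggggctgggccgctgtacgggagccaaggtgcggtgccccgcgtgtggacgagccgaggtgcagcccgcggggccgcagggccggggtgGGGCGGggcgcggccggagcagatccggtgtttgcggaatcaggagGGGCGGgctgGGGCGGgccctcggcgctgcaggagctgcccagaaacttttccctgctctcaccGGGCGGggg
ITGA5: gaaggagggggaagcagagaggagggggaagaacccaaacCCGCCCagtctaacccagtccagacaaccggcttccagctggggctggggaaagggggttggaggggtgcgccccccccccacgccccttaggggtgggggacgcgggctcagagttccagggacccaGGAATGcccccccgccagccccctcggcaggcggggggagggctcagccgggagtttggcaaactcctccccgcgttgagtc
ITGA2 held 4 GC boxes and ITGA5 held 1 GC box and 1 TEAD match, whereas ITGA6 and ITGA1 held none of the 4 motifs in this window. These 4 genes were chosen for their outcome, and over all called members in the table the GC box occurred in 3 of 10 lower members (ACTN4, ITGB1 and ITGB5) and 3 of 5 higher members (CRK, LIMS1 and ZYX), and ITGAE, which was not called, held none of the motifs. The promoter table had 29 of the 36 members. For each gene 1 start site was used, the first listed, and any other start of the gene was not searched. ITGA2 and ITGA5 were the only alpha chains with a GC box among the 9 found, against 42.3% of all 27305 promoters in the table, while 3 of 4 beta chains (ITGB1, ITGB5 and ITGB8) and 12 of 16 cytoplasmic members had one. The AP-1 motif occurred in 6.60% of all promoters and in ACTN4, BCAR1 and GIT1 among the members. The TEAD motif occurred in 11.9% of all promoters and in ITGA5, ITGA10, ITGB1 and VCL. The CArG box occurred in 1.14% of all promoters and in no member. A match is a run of letters and not a shown binding site.

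Of the beta chains, ITGB1, ITGB3, ITGB4 and ITGB5 fell. ITGB1, the common partner of most alpha chains, was at 293, 302 and 290.4 CPM in knockout libraries and 411, 363 and 354 CPM in wild-type libraries. All knockout values lay below all wild-type values (log2 fold change -0.35, SE 0.06, adjusted p = 4.37e-05). Its processed pseudogene ITGB1P1 was at 3.40 ± 0.11 CPM in knockout and 5.09 ± 1.10 CPM in wild-type libraries. ITGB3, the vitronectin receptor chain associated with invasive melanoma, was at 37.6, 48.1 and 37.1 CPM in knockout libraries against 62.96, 73.6 and 76.4 CPM in wild-type libraries. It had the lowest fold change of the called beta chains (log2 fold change -0.80, SE 0.10, adjusted p = 2.85e-05). ITGB5, another vitronectin receptor chain, was at 100.7, 94.2 and 104 CPM in knockout libraries and 129, 145 and 142 CPM in wild-type libraries (log2 fold change -0.48, SE 0.06, adjusted p = 2.96e-06).

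The remaining beta chains were closer to the spread between libraries. ITGB4, the hemidesmosome chain that pairs with alpha 6, was at 9.88, 9.36 and 11.96 CPM in knockout libraries and 10.7, 14.7 and 14.7 CPM in wild-type libraries. These values overlapped, and the call was near the threshold (log2 fold change -0.37, SE 0.14, adjusted p = 0.0458). It was lost without knockout replicate 1 or 2 and without wild-type replicate 2 or 3, with adjusted p from 0.137 to 0.183, and also with library size alone (adjusted p = 0.0816), DESeq2 (adjusted p = 0.0789) and limma-voom (adjusted p = 0.054). ITGB8, whose pairing with alpha V activates latent TGF-beta, was at 67.2, 83.7 and 71.7 CPM in knockout libraries against 86.3, 75.9 and 87.1 CPM in wild-type libraries. It was not called (adjusted p = 0.105, log2 fold change -0.16), but it passed as lower when either replicate 2 was left out (knockout: adjusted p = 0.0143; wild-type: adjusted p = 0.0424), after the length and GC correction (adjusted p = 0.0107) and with no filter on low counts (adjusted p = 0.0388). ITGB7, a leukocyte chain, was at 0.35 to 0.74 CPM in knockout and 0.54 to 0.88 CPM in wild-type libraries, where a change cannot be read at this depth (95% interval of the log2 fold change -1.44 to 0.63). ITGB7 also shares exon sequence with ZNF740 on the opposite strand, at 48.4 ± 2.5 CPM in knockout and 49.6 ± 1.1 CPM in wild-type libraries.

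**Figure D2:**
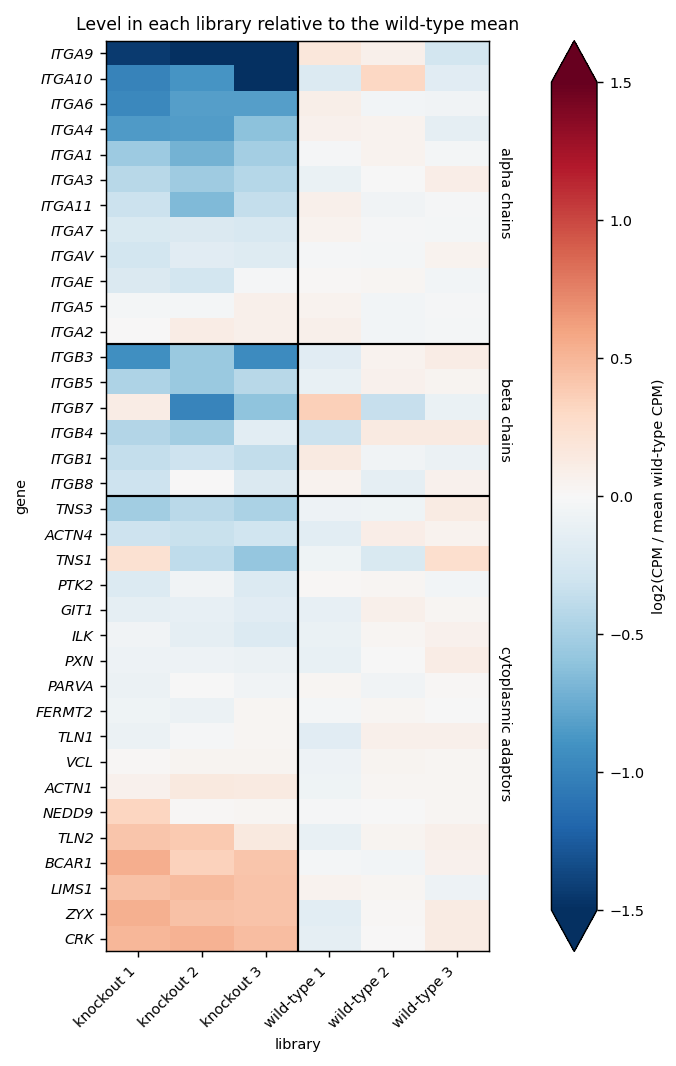
Level of each member in each library as log2(CPM over the mean wild-type CPM), with knockout libraries on the left, wild-type libraries on the right and colour saturating at 1.5 in either direction. The 3 knockout columns are blue for most integrin chains and near white for ITGA5 and ITGA2, and they are red for CRK, ZYX, LIMS1, BCAR1 and TLN2 among the cytoplasmic members.

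Summed over each class, alpha chains were at 1261 ± 37 CPM in knockout and 1633 ± 16 CPM in wild-type libraries, and beta chains at 520.7 ± 15.2 and 682.8 ± 15.5 CPM in knockout and wild-type libraries (SD, n = 3 each). The cytoplasmic members summed to 3092 ± 4 CPM in knockout and 3175 ± 206 CPM in wild-type libraries, where replicate 1 was lowest at 2938 CPM. The 3 knockout values lay wholly below the wild-type values for 12 of the 18 chains and wholly above for none, against 25.8% below and 25.4% above over all genes tested. For the cytoplasmic members these counts were 4 below and 6 above of 18.

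Per length of exon, ITGA5 was the most abundant alpha chain, at 62.7 ± 2.5 CPM per kilobase in knockout and 62.4 ± 2.0 CPM per kilobase in wild-type libraries. ITGA6 was at 30.6 ± 1.7 CPM per kilobase in knockout and 56.0 ± 3.0 CPM per kilobase in wild-type libraries, and ITGA3 at 32.4 ± 1.4 and 44.5 ± 3.0 CPM per kilobase in knockout and wild-type libraries. In knockout libraries ITGA3 and ITGA6 did not differ beyond their spread, while in wild-type libraries ITGA6 was above ITGA3. The other alpha chains were at 5.52 CPM per kilobase or less in knockout and 6.53 or less in wild-type libraries. ITGA5 thus made up 42.6% ± 0.4 of the summed alpha chain level per length in knockout and 32.7% ± 0.6 in wild-type libraries, and ITGA6 made up 20.8% ± 1.0 in knockout and 29.4% ± 1.2 in wild-type libraries. With the length of the canonical transcript in place of all annotated exons, a choice made after seeing the data, ITGA5 was at 44.2% ± 0.5 in knockout and 35.0% ± 0.9 in wild-type libraries and ITGA3 stood above ITGA6 in both genotypes. Among beta chains ITGB1 led with 20.3 ± 0.4 CPM per kilobase in knockout and 25.8 ± 2.1 CPM per kilobase in wild-type libraries, followed by ITGB5 with 15.3 ± 0.8 and 21.3 ± 1.3 CPM per kilobase in knockout and wild-type libraries. The size of that lead depended on the length used: with the canonical transcript ITGB1 was at 79.0 ± 1.7 CPM per kilobase in knockout and 101 ± 8 in wild-type libraries, and ITGB5 at 22.4 ± 1.1 in knockout and 31.2 ± 2.0 in wild-type libraries. The ITGB1 share of the beta chain level was then 66.6% ± 0.5 in knockout and 64.6% ± 3.2 in wild-type libraries, against 42.1% ± 0.5 in knockout and 39.7% ± 3.5 in wild-type libraries with all exons. ITGB8 also stood above ITGB3 in knockout libraries with the canonical transcript, and below it with all exons.

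**Figure D3:**
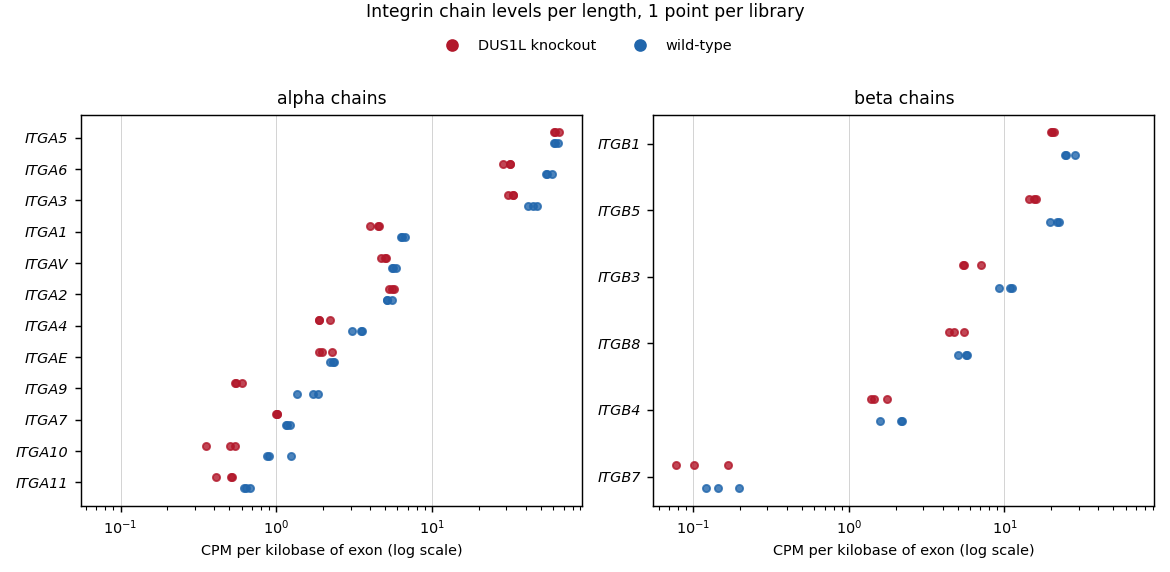
CPM per kilobase of exon (log scale) of each integrin chain, 1 point per library, with knockout points above wild-type points in each row. ITGA5 keeps its place near 62 CPM per kilobase in both genotypes, while the points of ITGA6, ITGA9 and ITGB3 are shifted left in knockout cells.

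Because most alpha chains share ITGB1 as partner, their counts were also set against ITGB1 within each library, for 10 alpha chains among 19 ratios that were chosen after the levels were seen. ITGA6 to ITGB1 was 0.655, 0.698 and 0.727 in knockout and 0.965, 1.00 and 1.02 in wild-type libraries, with no overlap between genotypes. ITGA9 to ITGB1 was 0.0159 ± 0.0010 in knockout and 0.0359 ± 0.0040 in wild-type libraries, and ITGA4 to ITGB1 was 0.0718 ± 0.0078 in knockout and 0.0956 ± 0.0062 in wild-type libraries. In the other direction, ITGA5 to ITGB1 was 1.54, 1.5 and 1.67 in knockout and 1.16, 1.24 and 1.29 in wild-type libraries, and ITGA2 to ITGB1 was 0.148 ± 0.004 in knockout and 0.111 ± 0.004 in wild-type libraries. ITGA3, ITGA11, ITGA1 and ITGAV overlapped between genotypes in this ratio. ITGAV to ITGB3 was 2.35 ± 0.28 in knockout and 1.56 ± 0.14 in wild-type libraries, and ITGAV to ITGB8 was 1.29 ± 0.10 and 1.33 ± 0.08 in knockout and wild-type libraries. An exact two-sided permutation test of 3 against 3 libraries cannot go below 0.1, a value that means only no overlap between genotypes. It was reached by 13 of the 19 ratios (adjusted p = 0.146 over the 19), many of which share a gene. By CPM of single genes, 25.8% of all genes tested lay wholly below and 25.4% wholly above in knockout libraries.

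**Figure D4:**
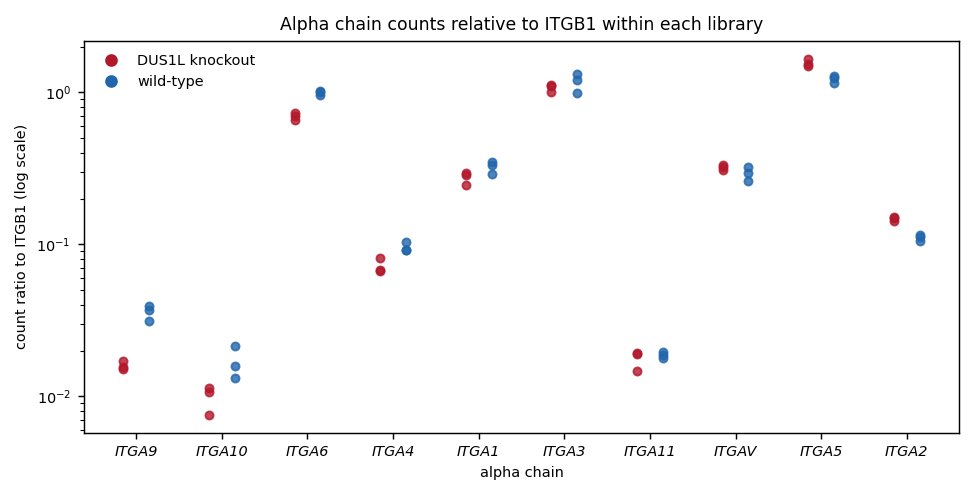
Count ratio of 10 alpha chains to ITGB1 within each library (log scale), knockout points left of wild-type points, ordered by the difference. ITGA9, ITGA10, ITGA6 and ITGA4 are lower against ITGB1 in all 3 knockout libraries, and ITGA5 and ITGA2 are higher in all 3.

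Of the cytoplasmic members that bind integrin tails or switch integrins on, most were not called. TLN1, the main talin, was at 246, 258 and 268 CPM in knockout libraries against 233, 277 and 276 CPM in wild-type libraries, overlapping throughout (log2 fold change -0.03, 95% interval -0.16 to 0.10, adjusted p = 0.755). TLN2, the less abundant talin, was at 19.2, 18.9 and 16.0 CPM in knockout libraries and 13.3, 14.8 and 15.2 CPM in wild-type libraries. It rose by 0.32 on the log2 scale (SE 0.11, adjusted p = 0.0259), but not without knockout replicate 1 or 2 or wild-type replicate 1 or 2 (adjusted p from 0.0532 to 0.112), nor once exon length and GC content were corrected for (adjusted p = 0.115, log2 fold change 0.22). FERMT2, or kindlin-2, was at 42.1, 41.7 and 44.96 CPM in knockout libraries and 43.2, 45.1 and 44.1 CPM in wild-type libraries (adjusted p = 0.675, log2 fold change -0.04). The ILK, PINCH and parvin complex links the tails to actin. Its PINCH member LIMS1 rose, at 36.98, 37.7 and 36.5 CPM in knockout libraries against 28.1, 27.7 and 25.8 CPM in wild-type libraries (log2 fold change 0.45, SE 0.08, adjusted p = 0.000123). The near copies LIMS3 and LIMS4 had at most 0.53 CPM in a library. The other complex members were not called, ILK at 87.1 ± 4.7 CPM in knockout and 95.4 ± 5.3 CPM in wild-type libraries (adjusted p = 0.101, log2 fold change -0.13) and PARVA at 79.8 ± 2.3 CPM in knockout and 82.4 ± 2.5 CPM in wild-type libraries (adjusted p = 0.566, log2 fold change -0.05). ILK exons overlap those of TAF10 on the opposite strand, which fell by 0.28 in log2 terms (adjusted p = 0.00433).

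Among the actin-linking members, zyxin rose and 1 of the 2 alpha-actinins fell. ZYX, which encodes the LIM protein zyxin that gathers at adhesions under tension, was at 242, 228 and 225 CPM in knockout libraries against 150.3, 170.3 and 183 CPM in wild-type libraries. The groups did not overlap (log2 fold change 0.47, SE 0.06, adjusted p = 8.4e-06). ACTN4 was at 803, 789 and 808 CPM in knockout libraries and 887, 1058 and 1029 CPM in wild-type libraries, and fell by 0.31 on the log2 scale (SE 0.06, adjusted p = 0.000229). Its paralog ACTN1 was at 417, 445 and 438 CPM in knockout libraries against 381, 409 and 410.1 CPM in wild-type libraries and was not called, although all knockout values were above all wild-type values (log2 fold change 0.11, adjusted p = 0.0752). With library size alone as the scaling it was called higher (log2 fold change 0.16, adjusted p = 0.0139). Within a library the ratio of ACTN1 to ACTN4 counts was 0.542 ± 0.022 in knockout and 0.405 ± 0.022 in wild-type libraries. VCL, vinculin, was at 159.7, 162 and 161 CPM in knockout libraries and 149.6, 162 and 160.3 CPM in wild-type libraries, and the interval of its log2 fold change was -0.08 to 0.14 (adjusted p = 0.658). TNS3, a tensin that binds beta chain tails and actin, was at 52.9, 57.3 and 54.7 CPM in knockout libraries against 72.2, 72.95 and 83.1 CPM in wild-type libraries (log2 fold change -0.47, SE 0.07, adjusted p = 1.72e-05). TNS1 was low, at 3.59 ± 1.10 CPM in knockout and 4.13 ± 0.73 CPM in wild-type libraries, and was not called (adjusted p = 0.539, log2 fold change -0.20).

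Of the signalling members, the p130Cas and CRK pair rose. BCAR1, which encodes the scaffold p130Cas, was at 145, 126 and 133 CPM in knockout libraries and 97.5, 96.5 and 104 CPM in wild-type libraries (log2 fold change 0.44, SE 0.06, adjusted p = 9.67e-06). CRK, the adaptor that binds phosphorylated p130Cas and paxillin, was at 136, 139 and 133 CPM in knockout libraries against 88.2, 96.7 and 105 CPM in wild-type libraries. It had the highest fold change of the 36 members (log2 fold change 0.49, SE 0.06, adjusted p = 2.64e-06). NEDD9, the second member of the p130Cas family followed here, was at 22.9, 18.5 and 18.7 CPM in knockout libraries and 18.1, 18.2 and 18.6 CPM in wild-type libraries and was not called (adjusted p = 0.338, log2 fold change 0.13). PTK2, focal adhesion kinase, was at 87.2, 97.1 and 87.1 CPM in knockout libraries against 102, 102 and 97.2 CPM in wild-type libraries. It missed the threshold (log2 fold change -0.15, SE 0.06, adjusted p = 0.054), and was called lower after the length and GC correction (adjusted p = 0.00116, log2 fold change -0.25) and without knockout replicate 2 (adjusted p = 0.021, log2 fold change -0.21). PXN, paxillin, had 402, 402 and 398 CPM in knockout libraries and 390.4, 421 and 456 CPM in wild-type libraries (adjusted p = 0.275, log2 fold change -0.08). GIT1, a paxillin-binding scaffold, was at 104 ± 2 CPM in knockout and 115 ± 8 CPM in wild-type libraries (log2 fold change -0.14, adjusted p = 0.0689). Leaving out wild-type replicate 1, the library that stood apart, PXN (adjusted p = 0.031), ILK (adjusted p = 0.0217) and GIT1 (adjusted p = 0.00544) passed as lower, so that 5 cytoplasmic members fell and 4 rose, and the chains stood at 7 alpha and 4 beta lower and none higher. The length and GC correction moved the same 3 genes and PTK2 past the threshold, with 6 cytoplasmic members lower and 4 higher. That correction moved all genes as well, to 4054 lower and 2945 higher of 16046, against 3320 lower and 3288 higher without it, and the median log2 fold change of all genes to -0.05.

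The remaining 8 integrin genes of the genome were followed for completeness. ITGAM, the alpha chain of the leukocyte receptor Mac-1, rose, at 10.8, 4.97 and 8.52 CPM in knockout libraries against 2.41, 2.44 and 2.79 CPM in wild-type libraries (log2 fold change 1.67, SE 0.25, adjusted p = 3.55e-05), and it passed the bar of 1.5-fold. Its partner ITGB2 was at 1.97, 1.96 and 2.59 CPM in knockout libraries and 1.65, 2.44 and 1.80 CPM in wild-type libraries and was not called (adjusted p = 0.725, log2 fold change 0.14), nor was ITGAX (adjusted p = 0.464, log2 fold change 0.22). The leukocyte marker LCP1, an actin-bundling protein, also rose. LCP1 was at 12.2, 8.96 and 8.57 CPM in knockout libraries against 1.53, 2.22 and 2.73 CPM in wild-type libraries. CORO1A fell (log2 fold change -0.50, adjusted p = 0.00383). It was at 10.3, 10.2 and 9.14 CPM in knockout libraries against 12.2, 15.8 and 13.8 CPM in wild-type libraries. The myeloid markers CD14 and CSF1R were low but higher in every knockout library than in any wild-type library. The same held for 25.4% of all genes tested. CD14 was at 0.48, 1.16 and 0.51 CPM in knockout and 0.18, 0.11 and 0 CPM in wild-type libraries. Its counts were 9, 20 and 9 in knockout and 3, 2 and 0 in wild-type libraries. CSF1R was at 0.74, 0.58 and 0.90 CPM in knockout and 0.29, 0.27 and 0.47 CPM in wild-type libraries. CSF1R was not called (adjusted p = 0.0949, log2 fold change 1.10), and CD14 was left out by the count filter. PTPRC averaged 0.20 CPM in knockout and 0.02 CPM in wild-type libraries, with 7, 1 and 3 counts in knockout and 0, 0 and 1 in wild-type libraries. CD68 overlapped between genotypes. The part of other cell types in these values was not tested. ITGA2B, ITGA8, ITGAD, ITGAL and ITGB6 were left out by the count filter, with at most 0.46 CPM in a library.

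Further genes of the adhesion pathway went in both directions. Of 53 tested plaque genes outside the 36, 16 rose, 13 fell and 24 were not called (median log2 fold change 0.02), against 20.5% higher and 20.7% lower over all genes. The 4 with the smallest p were AJUBA, a LIM protein that rose by 0.96 on the log2 scale (adjusted p = 5.55e-08), LPXN, the paxillin relative leupaxin, which rose by 0.53 (adjusted p = 3.82e-07), PPFIBP1, a liprin that fell by 0.46 (adjusted p = 1.08e-06), and FHL2, a LIM-only protein that rose by 0.64 (adjusted p = 1.81e-06). AJUBA was at 134, 109 and 118 CPM in knockout libraries and 61.8, 56.6 and 67.8 CPM in wild-type libraries. Of 20 signalling kinases and partners, 3 rose, 4 fell and 13 were not called. Neither share was above that of all genes, 20.5% higher and 20.7% lower. PTPRA, a phosphatase that activates Src kinases, fell by 0.46 (adjusted p = 1.26e-05), PAK1 by 0.29 (adjusted p = 0.000516) and AKT1 by 0.20 (adjusted p = 0.00821), while ROCK2 rose by 0.21 (adjusted p = 0.0139). SRC itself was at 97.4 ± 2.0 CPM in knockout and 89.6 ± 5.5 CPM in wild-type libraries and was not called (adjusted p = 0.121, log2 fold change 0.12).

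Among the matrix ligands of integrins and their lateral partners in the membrane, members moved in both directions. Of 19 tested ligands, 9 fell (47.4%) and 5 rose (26.3%), against 20.7% lower and 20.5% higher over all genes (median log2 fold change -0.18). NID1, or nidogen, fell by 0.52 (adjusted p = 7.08e-08), FN1, fibronectin, by 0.62 (adjusted p = 9.91e-08) and TNC, tenascin-C, by 0.40 (adjusted p = 2.19e-06). NID1 was at 186, 182 and 186 CPM in knockout libraries against 273, 258 and 263 CPM in wild-type libraries. TNC was at 689, 676 and 712 CPM in knockout libraries against 866, 925 and 949 CPM in wild-type libraries. ICAM1, a ligand of leukocyte integrins, rose by 0.95 (adjusted p = 1.33e-09). Of 12 tested tetraspanins and lateral partners, 6 fell and 2 rose (16.7%, against 20.5% of all genes), with a median log2 fold change of -0.17. CD151, the tetraspanin that binds laminin-binding integrins, was at 153, 138 and 147 CPM in knockout libraries and 187, 207 and 204 CPM in wild-type libraries, and fell by 0.45 in log2 terms (adjusted p = 2.63e-06). CD9 fell by 0.65 (adjusted p = 8.66e-08) and CD81 by 0.29 (adjusted p = 0.000117). SLC3A2, the heavy chain of CD98, which binds beta chain tails and serves amino acid transporters, rose by 1.08 (adjusted p = 9.37e-10).

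**Figure D5:**
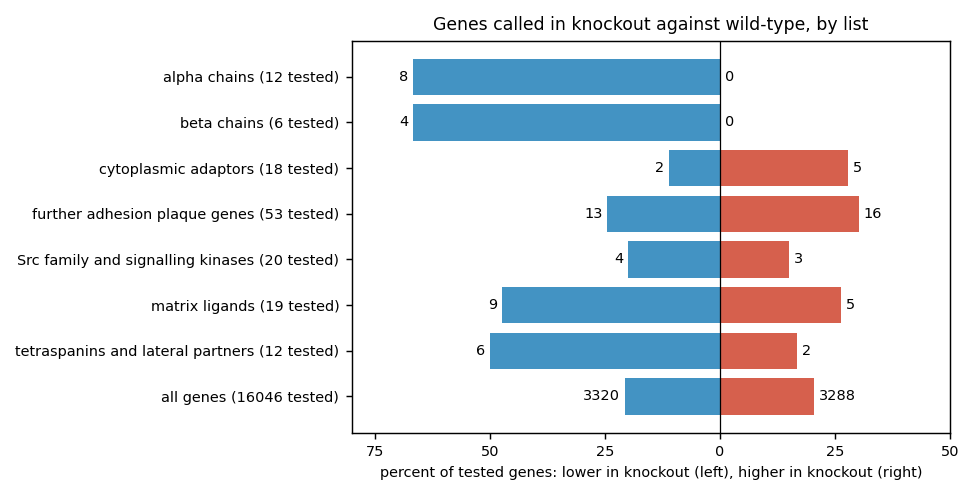
Percent of tested genes called lower (left) or higher (right) in knockout cells at an adjusted p under 0.05, by list, with the number of genes at the bar ends. The alpha and beta chains among the members have bars to the left alone, whereas further plaque genes and all genes reach to both sides. The other integrin genes, of which ITGAM was called higher, are not shown.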

How the data were processed

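RNA-seq of 6 A375 libraries was used, as 1 deposited table of gene-level estimated counts, which the authors are not recorded to have normalized. Per the submitters' processing notes, reads were placed on hg38. The aligner, counting tool and strand setting are not given in the sources used here, so reads of overlapping genes on opposite strands cannot be separated. Identifiers matched GENCODE release 44 for 62541 of 63086 genes.

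Estimated counts were rounded to whole numbers, filtered with filterByExpr (minimum count 10), scaled by TMM and tested two-sided with edgeR 4.0.16 under R 4.3.3 (quasi-likelihood, robust dispersions, genotype alone in the model). P-values were adjusted by Benjamini-Hochberg over 16046 genes, with a threshold of 0.05. Standard errors and 95% intervals came from the F statistic. The bar of 1.5-fold used glmTreat. Ratios of counts were tested by exact permutation with scipy 1.17.1. Levels per length used the union of annotated exons. Alternatives were DESeq2 1.42.0, limma-voom (limma 3.58.1), other scalings and filters, a replicate block, a loess correction for exon length and GC content, and each library left out.

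The fit was tested on simulated data. No 2 libraries matched within sampling noise (chi-square per degree of freedom 3.77 to 7.24 within groups). The series calls its replicates biological without saying whether they were separate cultures or clones, so p-values measure only the spread between these libraries, which may be technical. The members and lists were chosen with earlier results of these data known. Named genes were all members, the other integrin genes, and the 4 tested genes with the smallest p of each other list. SRC, the genes that overlap members and the single marker genes named were chosen after their values were seen. The grouping of alpha chains by ligand was also made after the fit.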

Additional observations from a re-analysis of the deposited data

How the results depend on the processing

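Of the 19 called members, 16 stayed called in the same direction under all 14 alternatives, and none changed direction. The exceptions were ITGA11, ITGB4 and TLN2. ITGB4 was not called with library size alone, DESeq2, limma-voom and 4 of the 6 libraries left out in turn. No integrin chain among the members was called higher under any alternative, while 7 or 8 alpha chains and 3 to 5 beta chains were called lower. ITGAM, an integrin chain outside the members, was called higher in the main fit. ITGB7 gave no value with a mean of at least 1 CPM. Called lower cytoplasmic members numbered 6 after the length and GC correction, against 2, while all genes called lower numbered 4054, against 3320, and those called higher 2945, against 3288, and 2 to 5 when a library was left out (5 without wild-type replicate 1). Those called higher were 4 to 6, against 5. Counts of all genes beyond 1.5-fold were 230 higher and 110 lower with DESeq2 and 226 and 119 with limma-voom, against 371 and 204. Src family and signalling kinases called higher were 6 with library size alone, 1 after the length and GC correction, and 1 to 5 with a library left out. Tetraspanins and partners called higher were 1 with DESeq2 and 1 or 2 with a library left out, and further plaque genes called lower were 7 to 13, against 13, with a library left out (7 without knockout replicate 1 and without wild-type replicate 2). The log2 fold changes that changed sign belonged to genes that were not called: ITGA2 at -0.002, ITGA5 at -0.035 and VCL at -0.008 after the length and GC correction, ITGA5 at -0.006 with no filter, and TLN1 at 0.018 and FERMT2 at 0.004 with library size alone. With a library left out, ITGA5 ranged from -0.029 to 0.033, TLN1 from -0.105 to 0.011 and VCL from -0.003 to 0.051. Where no value is given for it, the cause was not tested. Replicate numbers did not pair the libraries (correlations of deviations for the same number -0.116, -0.0981 and -0.0327). With a replicate block, 3122 genes were higher and 3119 lower, and among the members ITGA11 alone changed its call (adjusted p = 0.0539). At this depth a change in ITGB7, with 6 to 15 counts a library, could not be read.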
